A study of Mus musculus with 10 samples.

Results

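The 7 genes described here encode the rod proteins that carry the light signal from transducin to the plasma membrane and shut it off: Gnat1, Gnb1, Gngt1, Cnga1, Cngb1, Sag and Slc24a1. They were taken by name from a list of rod phototransduction genes, from which genes absent from the 11702 measured were left out. The rod opsin gene is not among the 7. All 7 passed the low-count filter in every comparison. Retinal polyA RNA of 10 female mice was sequenced at P36. The rd10 mice carry a Pde6b mutation and came from the strain B6.CXB1-Pde6brd10/J. Each mouse had received 1 μL into the vitreous at P10 and again at P24, either DMSO or 20 μM halofantrine. The groups were WT with DMSO (n = 4, W1 to W4), rd10 with DMSO (n = 3, D1 to D3) and rd10 with halofantrine (n = 3, H1 to H3). The strain of the WT mice is not given in the labels, and no WT mouse received halofantrine. By their labels all WT libraries and 3 rd10 libraries (D1, D2, H1) formed batch 1, and batch 2 held the other 3 (D3, H2, H3). The titles further put the WT libraries in another set than the rd10 libraries of batch 1, so that set and genotype cannot be told apart. In batch 2 the titles put D3 under one set name and H2 and H3 under another, so that set name and treatment cannot be told apart there.

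Rods respond to light through a cascade in which activated visual pigment loads transducin with GTP, transducin activates a cGMP phosphodiesterase, and the fall in cGMP closes a cation channel in the outer segment membrane. Gnat1 encodes the rod transducin α subunit, Gnb1 the β subunit and Gngt1 the γ subunit. Cnga1 and Cngb1 encode the subunits of the cGMP-gated channel, Slc24a1 encodes the Na/Ca-K exchanger that sits beside it and removes the entering calcium, and Sag encodes rod arrestin, which binds phosphorylated pigment and ends its signalling. Cones use a parallel set of proteins (Gnat2, Gnb3, Gngt2, Cnga3, Cngb3, Arr3 and Slc24a2). Gnb1 is also expressed by many other cell types, and Sag is also made by mouse cones. The rd10 mutation damages the β subunit of the rod phosphodiesterase, and rods of these mice degenerate in the first weeks after birth.

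The stretch before the start of transcription was available for 6 of the 7 genes in RefSeq (GRCm38.p6, 250 bases before the start), and 4 of them are shown: Sag, Cngb1 and Cnga1 as stretches that hold a motif of photoreceptor factors, and Gnb1, which is also expressed outside photoreceptors, as one that holds none. Capitals mark TAATCC or its reverse complement GGATTA, the core recognised by the photoreceptor homeodomain factor CRX, and TGCTGA or TCAGCA, a part of the site bound by the rod factor NRL. TAATCC is present on either strand in 6.25% of 32851 mouse promoters of this length, TGCTGA in 16.1%, and both in 0.962%. The printed regions are chr1:87803430-87803679 (+) for Sag, chr8:95306586-95306835 (-) for Cngb1, chr5:72642753-72643002 (-) for Cnga1 and chr4:155491111-155491360 (+) for Gnb1.
Sag: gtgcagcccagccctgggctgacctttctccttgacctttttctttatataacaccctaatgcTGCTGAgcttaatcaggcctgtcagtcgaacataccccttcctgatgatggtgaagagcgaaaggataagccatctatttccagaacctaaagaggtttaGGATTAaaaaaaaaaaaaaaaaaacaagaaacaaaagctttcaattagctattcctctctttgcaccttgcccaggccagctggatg
Cngb1: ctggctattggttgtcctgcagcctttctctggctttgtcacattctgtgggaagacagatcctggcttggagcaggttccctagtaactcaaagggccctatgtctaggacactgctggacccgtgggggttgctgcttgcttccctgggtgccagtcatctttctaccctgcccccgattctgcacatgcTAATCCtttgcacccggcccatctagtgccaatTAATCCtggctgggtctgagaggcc
Cnga1: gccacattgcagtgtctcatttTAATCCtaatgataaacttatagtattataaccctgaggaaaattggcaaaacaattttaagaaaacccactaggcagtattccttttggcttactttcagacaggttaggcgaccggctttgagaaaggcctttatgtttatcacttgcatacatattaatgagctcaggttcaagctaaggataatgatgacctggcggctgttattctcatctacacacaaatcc
Gnb1: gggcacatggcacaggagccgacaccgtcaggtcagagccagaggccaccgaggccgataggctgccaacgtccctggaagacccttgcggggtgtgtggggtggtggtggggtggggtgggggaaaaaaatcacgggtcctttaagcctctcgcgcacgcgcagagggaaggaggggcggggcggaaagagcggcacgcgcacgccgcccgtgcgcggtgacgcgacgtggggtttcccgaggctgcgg
Sag holds 1 copy of GGATTA, 87 to 82 bases before its start, and 1 copy of TGCTGA, 187 to 182 bases before it, and these do not overlap. Cngb1 holds TAATCC at 58 to 53 and at 25 to 20 bases before its start. Cnga1 holds TAATCC at 228 to 223 bases before the start. The Gngt1 window (chr6:3993758-3994007, + strand) holds GGATTA at 44 to 39 bases before the RefSeq start and is not printed, because GENCODE M21 starts Gngt1 inside it and annotates the rest as untranslated exon. The Cnga1 window lies within an exon of another Cnga1 transcript in GENCODE M21, with no UTR or coding annotation there. Neither motif is spelled out in this window of Gnb1 or of Slc24a1 (chr9:64951621-64951870, - strand). The Gnb1 stretch is the richest in G and C, with 69.2% against 38.4% to 55.6% in the other 5. A match describes the letters only, and binding was not measured.

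Before the comparisons, each library was checked against its label. Pde6b, the gene mutated in rd10, had 2699, 2850 and 2855 CPM (counts scaled to library size with TMM factors) in W1, W2 and W3, but 93.1 CPM in the library labelled WT W4, and 125 to 387 CPM in the 6 rd10 libraries. W4 therefore went against its label, and its title also names another set than those of W1 to W3. The summed CPM of 6 rod markers (Pde6b, Nrl, Nr2e3, Reep6, Rom1 and Esrrb), all detected, was 8824 to 9275 in W1 to W3, 447 in W4 and 556 to 1320 in rd10 libraries. Summed cone markers (7 of 7 detected) were at 1666 to 1834, 1390 and 1381 to 2001 CPM in the same order. In rd10 DMSO without W4, edgeR called 3 of the 7 lower (29.9% of all genes were called lower), among them the short-wave cone opsin Opn1sw (log2 fold change -1.13, SE 0.32, adjusted p = 0.0176), and 1 higher (32.3% of all genes), the cone phosphodiesterase subunit Pde6c (0.75, SE 0.08, adjusted p = 2.11e-04). The groups are given below with W4, as labelled, and without it. In bulk retina, fewer rods and less RNA per rod cannot be told apart.

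The 3 transducin subunits were all far lower in rd10 retina than in W1 to W3. Gnat1 stood at 14992, 14673 and 16102 CPM in W1, W2 and W3, at 501 CPM in W4, at 758, 820 and 2025 CPM in D1 to D3 and at 728, 1745 and 1404 CPM in H1 to H3. No rd10 library came near W1 to W3, W4 was the lowest of the 10 libraries, and D3 was more than double the other DMSO libraries. Gnb1 stood at 5929, 5774 and 6198 CPM in W1, W2 and W3, 567 CPM in W4, 618, 633 and 1130 CPM in D1 to D3 and 607, 899 and 797 CPM in H1 to H3. Gngt1 stood at 793, 723 and 875 CPM in W1, W2 and W3, 79.1 CPM in W4, 85.6, 83.8 and 144 CPM in D1 to D3 and 76.3, 172 and 155 CPM in H1 to H3. Gngt1 was the only member in which W4 was not the lowest library (H1 was lower) and in which D3 was not the highest rd10 library (H2 and H3 were higher).

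The channel subunits and the exchanger had a similar pattern over the libraries. Cnga1 stood at 780, 764 and 814 CPM in W1, W2 and W3, 36.7 CPM in W4, 49.4, 56.9 and 167 CPM in D1 to D3 and 45.7, 130 and 114 CPM in H1 to H3. Cngb1 stood at 1163, 1197 and 1322 CPM in W1, W2 and W3, 86.3 CPM in W4, 107, 116 and 203 CPM in D1 to D3 and 112, 188 and 189 CPM in H1 to H3. Slc24a1 stood at 1912, 1900 and 2101 CPM in W1, W2 and W3, 72.7 CPM in W4, 102, 107 and 295 CPM in D1 to D3 and 97.9, 237 and 212 CPM in H1 to H3. In all 3 genes the batch 2 libraries D3, H2 and H3 lay above D1, D2 and H1, and the DMSO and halofantrine libraries overlapped. Sag, the arrestin, stood at 4762, 5235 and 5063 CPM in W1, W2 and W3, 483 CPM in W4, 664, 624 and 1546 CPM in D1 to D3 and 620, 1490 and 991 CPM in H1 to H3. D3 kept 30.8% and H2 29.7% of the W1 to W3 mean of Sag, the largest remaining percentages of any member in any rd10 library.

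**Figure D1:**
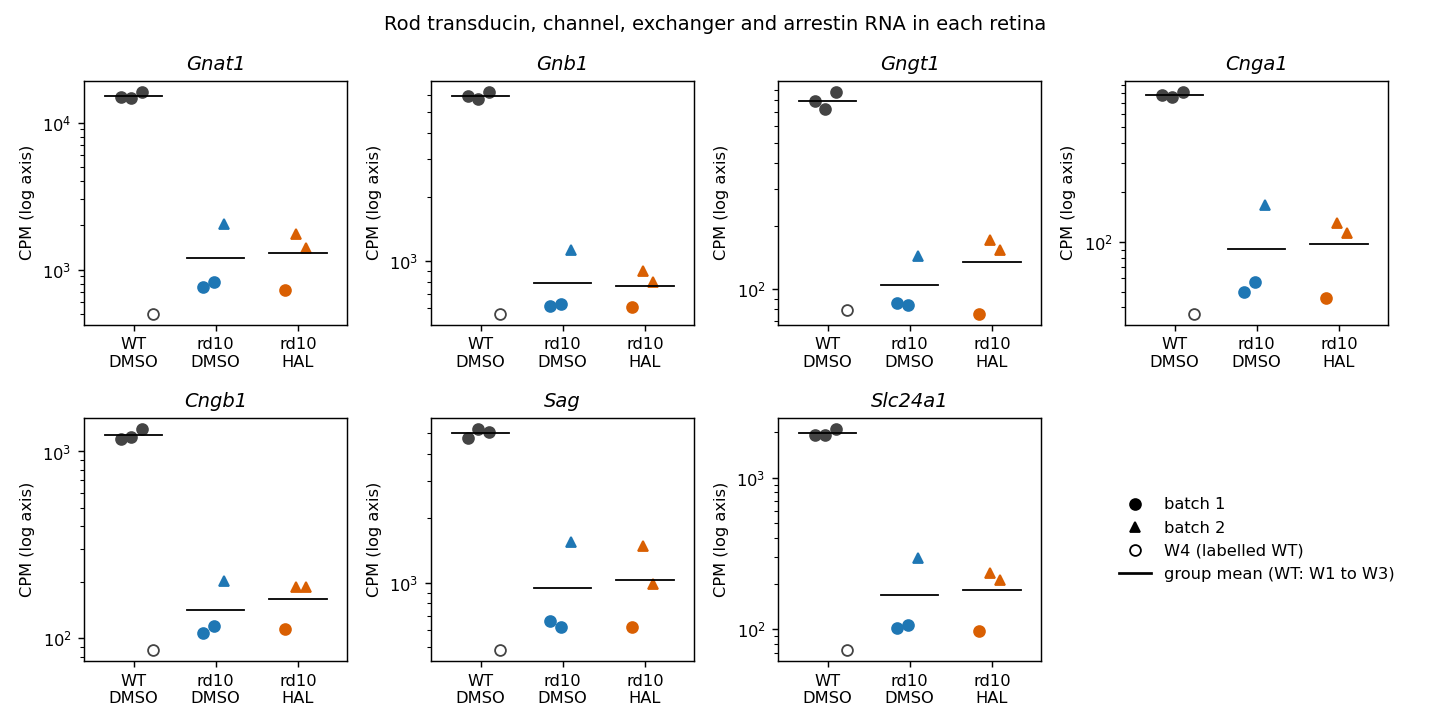
CPM of each of the 7 rod genes in each library on a log axis, with one panel per gene, circles for batch 1, triangles for batch 2, an open circle for W4 and horizontal lines for the group means (for WT the mean of W1 to W3). In every panel W1 to W3 lie above the other 7 libraries, W4 lies among or below the rd10 libraries, and the batch 2 triangles lie above the batch 1 rd10 circles.

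The first question was how far these transcripts differed between rd10 and WT retina. With all 4 libraries labelled WT, the edgeR quasi-likelihood test called none of the 7, with log2 fold changes of -3.26 (Gnat1) to -2.03 (Sag) and an adjusted p of 0.187 for each. In that fit 0 of 11698 genes passed, so percent called was 0%, although 3108 genes, the 7 members among them, had an unadjusted p under 0.05. DESeq2 called 589 genes and 5 of the 7 members (not Cnga1 or Sag), and limma-voom called 0.

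Without W4 all 7 genes fell in rd10 DMSO, against 29.9% of the 11696 genes tested that were called lower. The log2 fold change was -3.66 for Gnat1 (SE 0.40, adjusted p = 1.99e-04) and -3.54 for Slc24a1 (SE 0.43, adjusted p = 3.06e-04). It was -3.11 for Cnga1 (SE 0.46) and -3.10 for Cngb1 (SE 0.25), the channel subunits, and without D3 these were -3.87 and -3.45. It was -2.93 for Gngt1 (SE 0.22), -2.90 for Gnb1 (SE 0.25) and -2.40 for Sag (SE 0.35). The edgeR adjusted p of these 5 ran from 4.80e-05 (Gngt1) to 8.00e-04 (Cnga1). Every rd10 DMSO library lay below W1 to W3 for 7 of 7 members, against 35.5% of all genes. With W4 counted as WT, 0 of 7 lay wholly below and 0 of 7 wholly above it, against 5.49% and 4.60% of all genes. Within batch 1 alone, D1 and D2 against W1 to W3, the log2 fold changes were larger in size, from -4.26 (Gnat1) to -2.95 (Sag), and all 7 were again called. Markers of other cell types moved in the same comparison without W4, and their part in the members' values was not tested. All 5 detected of 8 microglia markers were called higher (median log2 fold change 2.28), with a sum of 23.1 to 30.7 CPM in W1 to W3 and 107 to 144 CPM in rd10 libraries. Of the markers of bipolar cells 5 of 7 were called higher, of Müller glia 6 of 6 and of amacrine and ganglion cells 7 of 8. Of the pigment epithelium 1 of 5 detected was called higher, while 3 of 4 detected blood and lens markers were called lower. Of all genes 32.3% were called higher in this fit and 29.9% lower.

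As a percentage of the W1 to W3 mean, the rd10 DMSO mean was 7.87% for Gnat1, 8.53% for Slc24a1, 11.6% for both Cngb1 and Cnga1, 13.1% for Gngt1, 13.3% for Gnb1 and 18.8% for Sag. In CPM, Gnat1 went from 15256 ± 750 (SD, n = 3) to 1201 ± 714 (SD, n = 3) and Sag from 5020 ± 239 (SD, n = 3) to 945 ± 521 (SD, n = 3). The spread among the rd10 DMSO libraries came mostly from D3. Gnat1, Slc24a1 and Cngb1 kept this order in each of D1, D2 and D3, as did Gnb1 and Sag, while Cngb1 and Cnga1, Cnga1 and Gngt1, and Gngt1 and Gnb1 changed places between these libraries.

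**Figure D2:**
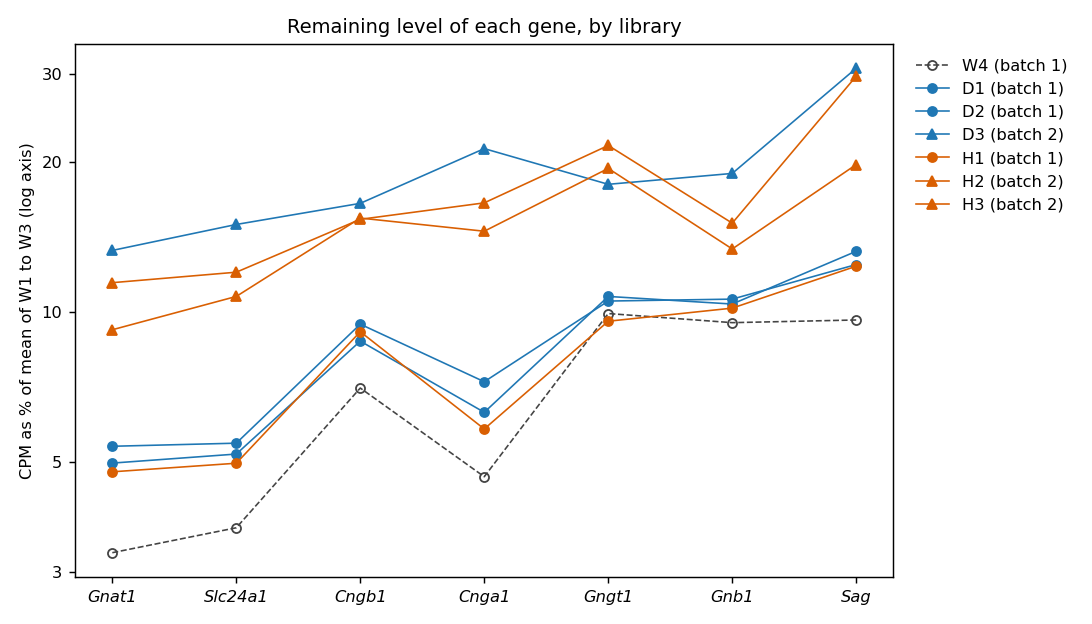
CPM of each rod gene in W4 and in the 6 rd10 libraries as a percentage of the mean of W1 to W3, on a log axis, with genes ordered by their mean in rd10 DMSO and 1 line per library. D3 runs from 13.3% for Gnat1 to 30.8% for Sag, and D1, D2 and H1 lie close together from 4.77% for Gnat1 in H1 to 13.2% for Sag in D1.

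The proportions among the members were examined per library as log2 ratios of CPM. Sag over Gnat1 was at -1.65, -1.49 and -1.67 in W1 to W3, at -0.19, -0.39 and -0.39 in D1 to D3 and at -0.05 in W4. Sag over Gnat1 was higher in rd10 DMSO by 1.28 on the log2 scale when W4 was left out, with no overlap of the groups (exact permutation p = 0.1, two-sided, the smallest p that 3 against 3 allows; adjusted over 12 ratios, 0.109). Gnat1 over Gnb1 was at 1.34, 1.35 and 1.38 in W1 to W3 and at 0.29, 0.37 and 0.84 in D1 to D3. Gnat1 over Gngt1 stood at 4.24, 4.34 and 4.20 in W1 to W3 and at 3.15, 3.29 and 3.82 in D1 to D3. In both ratios the groups did not overlap, and D3 lay nearest to W1 to W3.

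The ratio of the 2 channel subunits overlapped between the groups. Cnga1 over Cngb1 stood at -0.58, -0.65 and -0.70 in W1 to W3, at -1.12, -1.03 and -0.28 in D1 to D3 and at -1.29, -0.53 and -0.73 in H1 to H3. D1, D2 and H1 lay below W1 to W3, but D3 lay above them, so the groups overlapped (exact permutation p = 0.5). Slc24a1 over Cnga1, the exchanger relative to its channel, was at 1.29, 1.31 and 1.37 in W1 to W3 and at 1.05, 0.92 and 0.82 in D1 to D3, with no overlap. In all, 11 of 12 ratios did not overlap between W1 to W3 and D1 to D3. Ratios of other genes were not computed, so that this count has no background share. Among single genes, 35.5% lay wholly below W1 to W3 in rd10 DMSO. With W4 in the WT group 0 of 12 ratios were free of overlap (exact permutation p of 0.0857 to 0.943, where 0.0286 was the smallest possible).

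Per length, the transducin subunits were not equal in W1 to W3. As length-normalised levels (TPM), computed from the transcript counts and lengths, Gnat1 was at 13699 ± 677, Gnb1 at 6856 ± 156 and Gngt1 at 1345 ± 138 (SD, n = 3). The per-length level of Gnat1 over Gnb1 was 2.00 ± 0.06 (SD, n = 3) in W1 to W3, 1.27 ± 0.20 in rd10 DMSO and 0.801 in W4. Gnat1 over Gngt1 was 10.2 ± 0.59 in W1 to W3 and 5.79 ± 1.52 in rd10 DMSO. Sag, at 5946 ± 260 in the same unit in W1 to W3, was 0.435 ± 0.031 of the Gnat1 level there and 1.06 ± 0.09 of it in rd10 DMSO. Cnga1 stayed below Cngb1 per length, with a ratio of 0.625 ± 0.024 in W1 to W3 and 0.569 ± 0.186 in rd10 DMSO.

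The cone counterparts did not follow their rod partners. Without W4, edgeR called 4 of the 7 higher in rd10 DMSO (background 32.3% of genes higher) and 1 lower. Gnb3, the cone transducin β subunit, was higher by 0.71 (SE 0.08, adjusted p = 1.95e-04), Slc24a2, the cone exchanger, by 0.81 (SE 0.08, adjusted p = 1.56e-04), Cnga3 by 0.61 (SE 0.14, adjusted p = 0.00750) and Gngt2 by 0.17 (SE 0.06, adjusted p = 0.0368). Gngt2 was not called by DESeq2 on the same libraries (adjusted p = 0.0527). Slc24a2 and Gnb3 are also transcribed in other retinal neurons. Gnat2 fell by 0.21 (SE 0.07, adjusted p = 0.0257). Cngb3 (0.18, adjusted p = 0.405) and cone arrestin Arr3 (-0.02, adjusted p = 0.851) were not called, but within batch 1, again without W4, Cngb3 was called higher (0.36, edgeR adjusted p = 0.00283). The small differences depend on the scaling: with library size only, the median of all genes was 0.19 against -0.01 with TMM, Gnat2 was at -0.00447 and lost its call, Arr3 was at 0.18, and the share of higher calls among all calls was 72.7% against 51.9%. With W4 included, 0 of the 7 were called by edgeR.

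With rod and cone versions set side by side, Gnat1 over Gnat2 in log2 CPM was at 6.28, 6.17 and 6.32 in W1 to W3, at 2.19, 2.33 and 3.46 in D1 to D3 and at 1.55 in W4. Per length, rod Gnat1 exceeded cone Gnat2 by 49.4-fold ± 2.92 (SD, n = 3) in W1 to W3 and 4.29-fold ± 2.13 in rd10 DMSO. Gnb1 exceeded Gnb3 by 12.3-fold ± 0.73 in W1 to W3 and was at 0.895 ± 0.320 of it in rd10 DMSO. Slc24a1 over Slc24a2 went from 29.2 ± 2.97 to 1.38 ± 0.83, and Sag over Arr3 from 7.36 ± 0.49 to 1.45 ± 0.80. D3 raised these rd10 DMSO means. Slc24a1 over Slc24a2 was at 0.914, 0.892 and 2.33 in D1 to D3, with a mean of 0.903 without D3. Sag over Arr3 was at 1.13, 0.859 and 2.37, with a mean of 0.995 without D3. Gnb1 over Gnb3 was at 0.737, 0.685 and 1.26, with a mean of 0.711 without D3. Gnat1 over Gnat2 was at 2.87, 3.26 and 6.75, with a mean of 3.07 without D3. None of the 7 rod to cone ratios overlapped between W1 to W3 and D1 to D3, but the share for ratios of other genes was not computed.

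**Figure D3:**
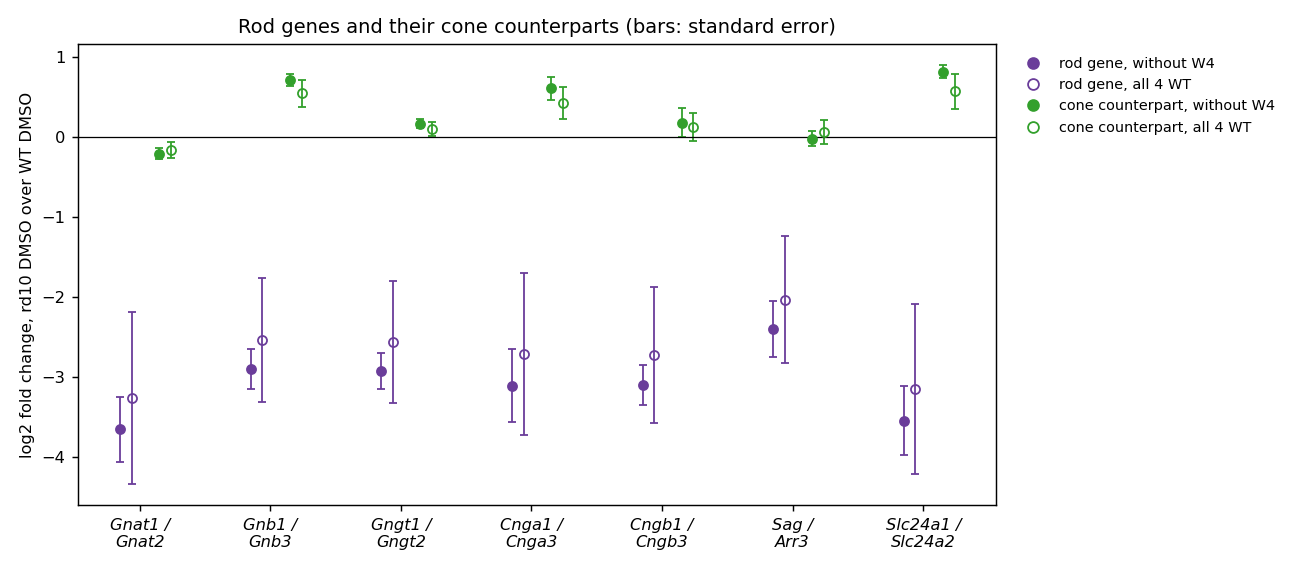
Log2 fold change of rd10 DMSO over WT DMSO for each rod gene and its cone counterpart, with filled points without W4, open points with all 4 WT libraries and bars for the standard error. The filled rod points lie between -3.66 and -2.40 and the filled cone points between -0.21 and 0.81.

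Of 13 other rod phototransduction genes, 13 fell without W4, with a median log2 fold change of -3.06 beside -3.10 for the 7 members and -0.01 for all genes. Guca1b, encoding a guanylate cyclase activator, and Pde6b, with the largest changes in the fit with W4, were at -4.47 (SE 0.33) and -3.63 (SE 0.41). Gnb5 and Rgs9, whose proteins form the complex that speeds GTP hydrolysis by transducin, fell least, with -1.51 (SE 0.21) and -1.91 (SE 0.31). The adjusted p of these 4 in edgeR ran from 4.42e-05 to 1.20e-03. All members thus lay between Guca1b and Rgs9 in size. The genes that followed Gnat1 most closely across the 10 libraries, by the root mean square difference of mean-centred log2 CPM, were the member Slc24a1 at 0.08 and then Pde6b at 0.09, Gucy2f at 0.12, E130310I04Rik at 0.13, Nxnl1 at 0.18 and Nt5e at 0.18. Among the members Cnga1 was next at 0.25, followed by Cngb1 at 0.40, Gnb1 at 0.51, Gngt1 at 0.54 and Sag at 0.62. Because W1 to W3 lay far above the other libraries, this measure depends strongly on the size of that difference. Its order of the members is close to that of their fold changes.

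Transcript counts were then examined, and 43 transcripts of the 7 genes were listed. In Gnat1, Gngt1, Cnga1 and Slc24a1 a single transcript held 90.9% or more of the gene in every library. For Cngb1 the long transcript Cngb1-202 (6189 bases), which encodes the channel subunit, held 55.4% to 61.5% in W1 to W3 and 56.8% to 62.4% in the rd10 libraries. The short Cngb1-201 (1512 bases), which shares its annotated start with Cngb1-202 but has 13 exons in place of 33, held 19.8% to 24.1% in W1 to W3 and 15.6% to 23.6% in the rd10 libraries. Both pairs of ranges overlapped, and neither share was called by edgeR's diffSpliceDGE (adjusted p of 1.00 with and without W4). In CPM both Cngb1 transcripts fell together, to 11.7% (Cngb1-202) and 9.40% (Cngb1-201) of the W1 to W3 mean in rd10 DMSO. For Sag the full transcript Sag-201 held 79.5% to 81.2% in W1 to W3 and 84.9% to 88.4% in the rd10 libraries. It held 86.6% in W4. How many of all transcripts separate in this way was not computed.

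Gnb1 transcripts differ in their first exons. Gnb1-201 and Gnb1-202 begin at the upstream start (chr4:155491370 and chr4:155491364, + strand, GRCm38, GENCODE M21), and Gnb1-201 holds an additional noncoding exon of 49 bases (chr4:155515631-155515679) in front of the coding exons. Gnb1-209 begins 31.1 kb further downstream, at chr4:155522462, and is annotated without its 3′ end. The share of Gnb1-201 was 17.4%, 16.0% and 17.6% in W1 to W3, 37.3% in W4, 34.2%, 34.6% and 26.0% in D1 to D3 and 32.0%, 28.3% and 27.8% in H1 to H3. All 6 rd10 libraries lay above W1 to W3. The share of Gnb1-209 was 18.9%, 19.5% and 18.5% in W1 to W3, 11.2% in W4, 10.6%, 10.5% and 15.3% in D1 to D3 and 9.98%, 14.5% and 13.8% in H1 to H3, all below W1 to W3. Gnb1-206 separated as well, with 10.1% to 11.3% in W1 to W3 and 7.22% to 9.10% in the rd10 libraries. The share of all transcripts that separate in this way was not computed. In CPM, Gnb1-201 kept 23.8% of its W1 to W3 mean in rd10 DMSO, Gnb1-208 13.0%, Gnb1-209 8.98% and Gnb1-202 7.54%. Gnb1-201 kept the largest percentage of these 4 in each of D1, D2 and D3, while Gnb1-202, which shares its upstream start, kept far less. The order of Gnb1-209 and Gnb1-202 rested on D3. Gnb1-209 stood at 65.3, 66.6 and 173 CPM in D1 to D3, beside a W1 to W3 mean of 1132 CPM. Gnb1-202 stood at 41.1, 36.6 and 39.7 CPM, beside a mean of 519 CPM. In D1 and D2 it was Gnb1-209 that kept the smaller percentage.

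The tests of these shares differed by tool. diffSpliceDGE called 0 of 39 member transcripts tested, both with W4 (130 of 48561 transcripts, 0.268%) and without it (345 of 46339, 0.745%), and gave Gnb1-201 an unadjusted p of 0.00397 and an adjusted p of 0.299 without W4. limma's diffSplice, added after the data were seen, called 2 without W4, where 2.80% of transcripts were called: Gnb1-201 was higher by 1.26 on the log2 scale (adjusted p = 5.55e-05) and Gnb1-209 lower by 0.81 (adjusted p = 0.0425). With W4 it called 0. On simulated data diffSpliceDGE recovered fewer of the seeded transcript changes than limma's diffSplice did. Those seeded changes were larger than that of Gnb1-201, with the same spread set for every transcript and no library that stood apart. The simulation therefore does not decide between the tools here. Kallisto divides reads among overlapping transcripts by estimation, so that these shares carry an error not contained in the counts. Summed markers of bipolar cells (1304 to 1391 CPM in W1, W2 and W3, 2077 to 2377 in rd10) and of Müller glia (3604 to 3761 and 5465 to 6305 CPM) were higher in the same libraries, and their part in the Gnb1 shares was not tested.

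**Figure D4:**
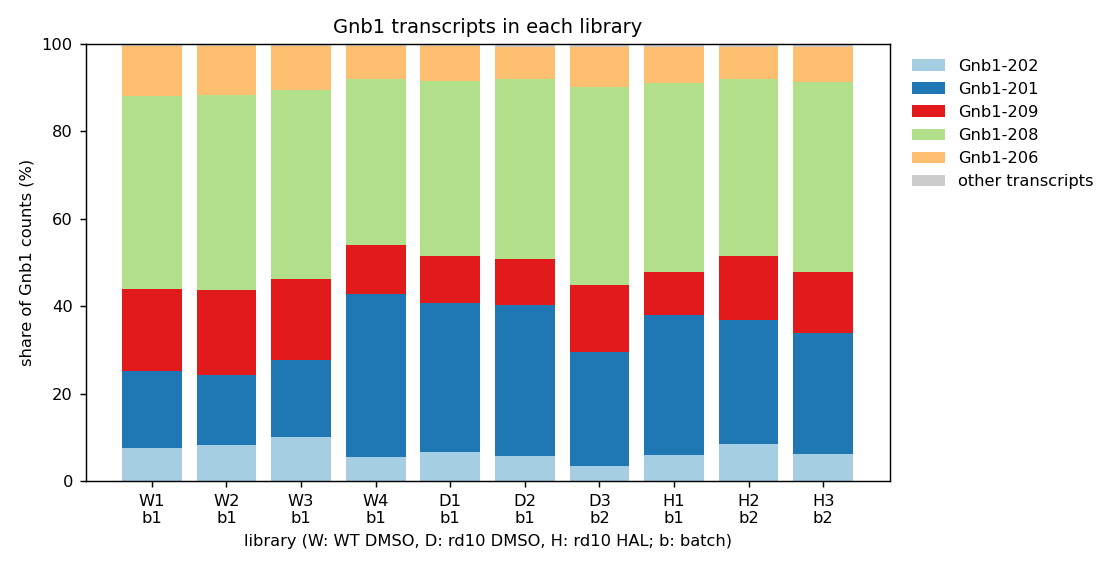
Share of the Gnb1 counts assigned to each transcript in each library, as stacked percentages, with the batch under each library name. The Gnb1-201 segment takes 16.0% to 17.6% in W1 to W3 and 26.0% to 34.6% in the rd10 libraries, and the Gnb1-209 segment is narrower in the rd10 libraries than in W1 to W3.

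The last question was whether halofantrine altered the 7 transcripts in rd10 retina. None was called by edgeR, with log2 fold changes over DMSO of 0.37 for Gngt1 (SE 0.33), 0.20 for Cngb1 (SE 0.29), 0.13 for Sag (SE 0.42), 0.12 for Slc24a1 (SE 0.48), 0.10 for Gnat1 (SE 0.44), 0.09 for Cnga1 (SE 0.54) and -0.05 for Gnb1 (SE 0.25). Adjusted p ran from 0.891 to 0.981, and none had an unadjusted p under 0.05. In this comparison 0 of 11692 genes were called (0%), 557 (4.76%) had an unadjusted p under 0.05, DESeq2 called 3 and limma-voom 0. For 0 of 7 members did the halofantrine libraries all lie on one side of the DMSO libraries, against 13.1% of all genes. The log2 fold changes depended on D3. Without it they were 0.87 for Cnga1, 0.80 for Slc24a1, 0.72 for Gnat1, 0.69 for Sag and 0.30 for Gnb1, and again no member was called by edgeR.

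The treatments were also compared within batches, where 1 arm is a single library. In batch 1, H1 lay below both D1 and D2 in 6 of 7 members (not Cngb1), as it did in 33.8% of all genes, with differences in log2 CPM of -0.21 (Cnga1) to 0.01 (Cngb1). In batch 2, H2 and H3 lay below D3 in 6 of 7 (not Gngt1), as in 42.1% of all genes, with differences of -0.46 (Cnga1) to 0.18 (Gngt1). D3 was the highest rd10 library in 6 of 7 members, and its set name is not that of H2 and H3. A fit with a batch term gave log2 fold changes of -0.34 for Cnga1 (SE 0.09), -0.25 for Slc24a1 (SE 0.08), -0.24 for Gnat1 (SE 0.10), -0.23 for Gnb1 (SE 0.09), -0.19 for Sag (SE 0.15), -0.05 for Cngb1 (SE 0.06) and 0.02 for Gngt1 (SE 0.09). Cnga1, Slc24a1, Gnb1 and Gnat1 had an unadjusted p under 0.05, as 16.6% of all genes did, and no member passed adjustment by edgeR (adjusted p of 0.269 to 0.926). Treatment by batch interaction was called for none of the 7 (edgeR adjusted p of 0.175 to 0.669, 49 of 11701 genes called), in a fit with 2 residual degrees of freedom in which H1 and D3 each stood alone for their batch and treatment. For transcript shares, 0 of 37 member transcripts were called by diffSpliceDGE (135 of 49710 transcripts, 0.272%) and 0 by limma. Blood and lens markers (4 of 8 detected) summed to 111 CPM in H2 and 79.7 CPM in H3 and to 11.8 to 31.3 CPM in the other rd10 libraries, and their part in these values was not tested.

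The 2 batches of rd10 libraries were also compared. All 7 members were higher in batch 2 with treatment in the model, where 3.09% of 11698 genes were called higher by edgeR. Cnga1 was higher by 1.53 (SE 0.09, adjusted p = 1.05e-03), Slc24a1 by 1.34 (SE 0.08), Gnat1 by 1.23 (SE 0.10), Sag by 1.13 (SE 0.15), Gngt1 by 0.93 (SE 0.09), Cngb1 by 0.80 (SE 0.06) and Gnb1 by 0.67 (SE 0.09, adjusted p = 0.0111). D3, H2 and H3 lay above D1, D2 and H1 in 7 of 7 members, against 14.6% of all genes. Without D3 the calls of Gnb1 (0.48, adjusted p = 0.0720) and Sag (1.00, adjusted p = 0.121) were lost. Of the 13 other rod phototransduction genes 12 were called higher, and of the 7 cone counterparts 0 were called, with log2 fold changes of -0.30 to 0.23. Of the 7 cone markers 2 were called higher, Opn1sw by 1.15 (SE 0.12, adjusted p = 0.00505) and Opn1mw, the middle-wave cone opsin, by 0.35 (SE 0.07, adjusted p = 0.0403). Of the markers of other cells, 2 of 7 for bipolar cells, 2 of 6 for Müller glia and 1 of 8 for amacrine and ganglion cells were called lower in batch 2, where 1.55% of all genes were called lower. None of the 5 microglia, 5 pigment epithelium and 4 blood and lens markers tested was called, although the last had a median log2 fold change of 1.65. Their part in the batch difference was not tested, and the labels do not say what the batches differ in.

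**Figure D5:**
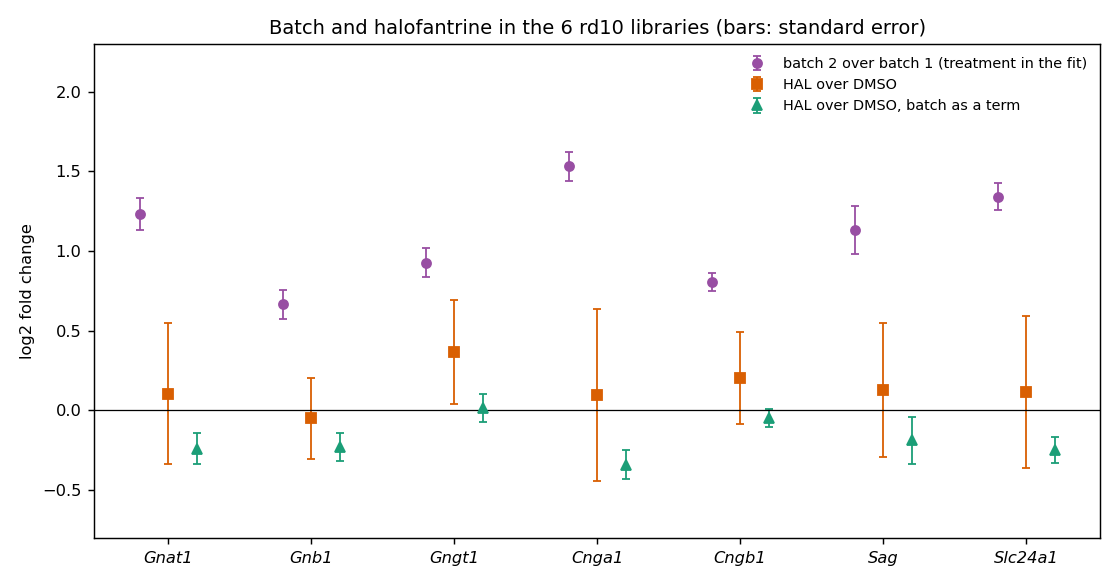
Log2 fold changes with standard errors for each rod gene in the 6 rd10 libraries, for batch 2 over batch 1 with treatment in the fit, for halofantrine over DMSO, and for halofantrine over DMSO with batch as a term. The batch points lie between 0.67 and 1.53, and the halofantrine points lie between -0.05 and 0.37 without and between -0.34 and 0.02 with the batch term.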

How the data were processed

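Strand-specific polyA libraries were made from RNA of each retina sample. The authors pseudoaligned reads with Kallisto to Ensembl release 115 mouse transcripts (GRCm39 in the submitters' notes) and imported them with tximport. They deposited estimated counts per gene (11702 genes) and per transcript (275112 transcripts), without scaling, and a table named CPM that holds the gene counts divided by 1 factor per library. That deposited signal was used only to check the counts. The authors' table of their own comparison (fold changes and p-values) was not used. Estimated counts were rounded. The 10 libraries held 15512212 to 38160436 gene counts, of which the 7 genes took 2.74% to 2.89% in W1 to W3, 0.193% in W4 and 0.240% to 0.577% in rd10 libraries, so that counting error was small beside the spread between libraries. The chi-square per gene between replicate libraries was 4.48 to 431, and none was taken for a copy.

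Genes were filtered by filterByExpr (minimum count 10), scaled by TMM and compared with the edgeR 4.0.16 quasi-likelihood test in R 4.3.3, with Benjamini-Hochberg adjustment over all genes and a threshold of 0.05. CPM values use TMM over the 10 libraries, and log2 CPM a prior count of 2. Ratios were compared by exact permutation tests, two-sided. Transcripts were compared by diffSpliceDGE. Each p-value measures the spread between libraries, whose titles carry separate combinations of set and animal number. Alternatives were DESeq2 1.42.0, limma-voom (limma 3.58.1), RLE factors, library size only, no filter, batch as a term, a joint fit of 10 libraries and each library left out in turn. Gene fits and both transcript tests were tested on simulated data, where diffSpliceDGE missed many seeded changes of transcripts. Symbols matched 11492 of 11702 identifiers. Coordinates and exons are from GENCODE M21 and RefSeq (GRCm38), not the authors' build. Transcript lengths came from the same set, which held 97.4% to 97.7% of transcript counts.

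Members and lists were chosen with earlier results of these data known. Genes named were the members, their cone counterparts, Pde6b, the other rod phototransduction genes with the 2 largest and 2 smallest changes, transcripts with at least 5% of a gene, and the 5 genes nearest to Gnat1 across libraries. The cone markers Opn1sw, Opn1mw and Pde6c were named after their values were seen. Nearness by correlation over the 6 rd10 libraries is not reported, because these fall into 2 batches.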

Additional observations from a re-analysis of the deposited data

Results flagged for a closer look

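In the WT group, 20 of 41 results examined had 1 library far from the other 3, judged by its gap divided by the range of the group (Dixon's test at the 95% level). Chance gives about 1 in 20 such results. These results share genes and the same libraries, and W4 was known beforehand to stand apart. The count is therefore no test, and its results are not separate from each other. For CPM that library was W4, below the others, and the gap was 0.908 for Gnat1, 0.925 for Gnb1, 0.937 for Cnga1, 0.871 for Cngb1, 0.900 for Sag, 0.901 for Slc24a1 and 0.943 for Pde6b. The log2 ratios among members had gaps of 0.975 (Gnat1 over Gnb1), 0.916 (Gnat1 over Gngt1) and 0.887 (Sag over Gnat1). The rod to cone ratios had gaps of 0.968 (Gnat1 over Gnat2), 0.941 (Gnb1 over Gnb3), 0.949 (Gngt1 over Gngt2), 0.966 (Cnga1 over Cnga3), 0.924 (Cngb1 over Cngb3), 0.945 (Sag over Arr3) and 0.964 (Slc24a1 over Slc24a2). Transcript shares had gaps of 0.925 (Gnb1-201), 0.877 (Gnb1-209) and 0.945 (Cngb1-205).

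The 7 members and their 7 cone counterparts were examined for a halofantrine difference that changed side between batches. For 3 of them every halofantrine library lay on one side of DMSO in batch 1 and on the other in batch 2. The share of all genes with this pattern was not computed. The difference in log2 CPM in batch 2 minus that in batch 1 was 0.33 for Gngt1 (lower in batch 1, higher in batch 2), 0.21 for Gngt2 (the same order) and -0.28 for Gnb3 (the opposite order). The edgeR interaction term gave adjusted p of 0.212, 0.277 and 0.229. That fit has 2 residual degrees of freedom and 1 library each for halofantrine in batch 1 and DMSO in batch 2, so that it does not decide whether the batches differ.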

How the results depend on the processing

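No paired analysis was possible because the titles number animals within named sets, and in no set do both groups share a number. In rd10 DMSO against WT, edgeR called 0 genes and 0 members; DESeq2 called 589 genes and 5 members. Leaving out 1 library gave 0 to 7280 genes and 0 to 7 members, both upper values without W4. Without W4, 7 members were called throughout, among 8460 genes in batch 1 alone, 7440 with library size only, 7271 with RLE factors, 7336 with DESeq2 and 7388 with limma-voom. These combinations with a scaling or tool were chosen after seeing the data. Ratios without overlap numbered 0 to 11 when 1 library was left out, and limma's diffSplice without W4 called 2 transcripts. Arr3, at 0.06 in the fit with W4, stayed positive under each other scaling or tool with W4 included. With W4 left out as well, it was at -0.0155 in batch 1, -0.0184 with RLE factors, -0.0183 with DESeq2 and -0.0274 with limma-voom. It lay between -0.0219 and 0.14 with 1 library left out. Cngb3 lay between -0.0208 and 0.32 with 1 library left out. The cause was not tested.

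For halofantrine, DESeq2 called 3 genes, leaving out 1 library gave 0 to 7 genes, and 0 to 1 ratio was free of overlap. With the batch term Gnat1 was at -0.24, Cnga1 at -0.34, Cngb1 at -0.0501, Sag at -0.19 and Slc24a1 at -0.25. With 1 library left out the log2 fold change lay between -0.17 and 0.72 for Gnat1, -0.20 and 0.30 for Gnb1, -0.20 and 0.87 for Cnga1, -0.23 and 0.69 for Sag, and -0.14 and 0.80 for Slc24a1; the upper values came without D3. No member was called in any of these fits. For batch, DESeq2 called 1419 genes, a fit with no treatment term 218, and leaving out 1 library gave 91 (without D3) to 2638 (without H1). The members' log2 fold changes stayed positive in all 12 alternatives. Gnb1 was not called with no treatment term (0.60, edgeR adjusted p = 0.0551).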
